A study of Saccharomyces cerevisiae with 16 samples.

Results

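The aerobic sample taken at 9.6 h, when the feed held 11.56 g/L glucose, was set against the aerobic samples at 4.1, 6.85 and 14.5 h and against the range of all 7 other aerobic arrays. It was chosen by these log2 values themselves, so what follows describes 1 array, carries no test and reads nothing from how many genes deviate. A gene belonged to the set when its value at 9.6 h lay above the highest or below the lowest of the 7 other aerobic arrays. Of 5212 genes measured, 3256 (62.5%) did so: 1952 lay above the range, which is 37.5%, and 1304 lay below it, which is 25.0%. The deviation was unequal in size. Only 110 genes (2.11%) lay more than 1 log2 unit above the range, whereas 546 (10.5%) lay more than 1 unit below it. More than 2 units above were 10 genes (0.192%), against 336 (6.45%) more than 2 units below.

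All cultures were of the yeast Saccharomyces cerevisiae, strain CEN.PK113-7D, which is widely used in fermentation research, on mineral salts medium. Glucose limited growth at the start, and its feed concentration was then raised in a straight line until ammonia ran short, as the labels describe it. RNA came from whole biomass, quenched on ice and frozen. The sample at 9.6 h was 1 array, its neighbours at 4.1, 6.85 and 14.5 h had 5.51, 8.5 and 16.96 g/L glucose in the feed, and the other 4 aerobic arrays at 0, 27.25, 42.65 and 53.95 h had 1, 30.97, 47.91 and 60.34 g/L. An anaerobic series of 8 arrays, from 0 to 50.85 h and from 1 to 46.75 g/L, was not used by the rule. All share the strain and medium, the samples of a series follow each other in time, and the labels name neither replicate cultures nor the hour at which ammonia became limiting. The neighbours are therefore not replicates, and the error of the 9.6 h values is unknown.

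Making ribosomes is the costliest task of a growing yeast cell. RNA polymerase I transcribes the ribosomal RNA precursor, the small subunit processome and the large subunit assembly factors cut and fold it, and RNA polymerase III supplies 5S RNA and tRNA. The genes for these factors and for the ribosomal proteins are switched together by the nutrient-sensing TORC1 and protein kinase A pathways, which also hold back the stress activators Msn2 and Msn4. Nitrogen catabolite repression is a separate system that keeps genes for poor nitrogen sources silent while a good source such as ammonium is plentiful.

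The values are the authors' log2 intensities from GCRMA, with 1 log2 unit being a doubling of signal. They are relative within an array, and values under 4 log2 units are near the lower end of the scale. A difference counted from 4 is given as "at least". The 9.6 h array had a median of 11.50 log2 units, where its aerobic companions had 11.33 to 11.51. Of its probe sets 6.33% were under 4, against 5.48% to 6.61%. Its last quartile, at 12.79, was higher than the 12.65 to 12.72 of all 7 other aerobic arrays. Across all probe sets, which are not independent replicates, it correlated at 0.791 and 0.793 with the arrays at 4.1 and 6.85 h. With the one at 14.5 h it correlated at 0.896. The median difference over all genes, 9.6 h minus the median of the 3 neighbours, was 0.25 log2 units, and 0.12 after each array was centred on its own median. Small differences are read against this shift. Each of the other aerobic arrays was the highest of all 8 for 118 to 906 genes and the lowest for 186 to 1383. By more than 1 log2 unit, they were highest for at most 67 genes (0 h) and lowest for at most 28 (6.85 h).

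**Figure D1:**
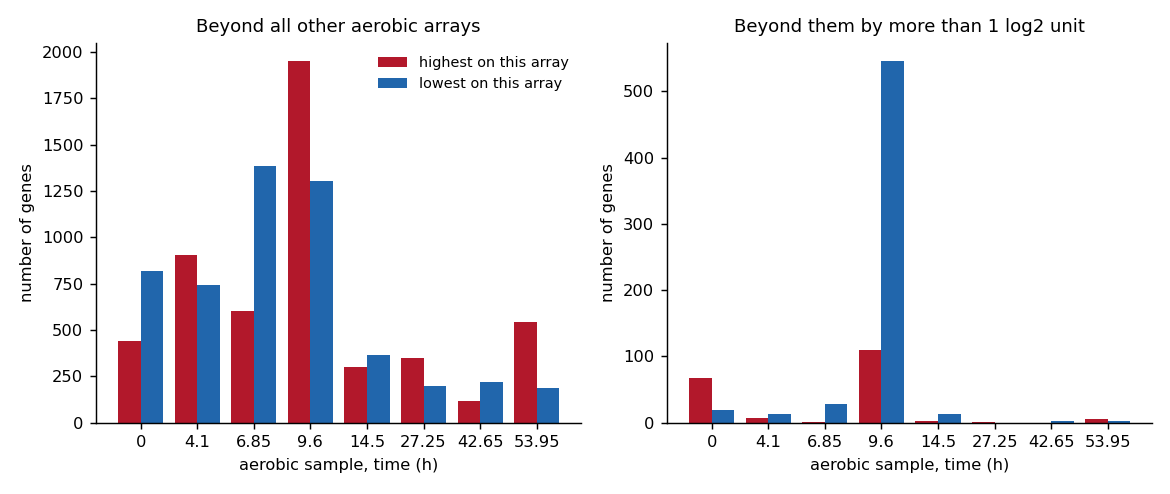
Number of genes, of 5212, whose highest (red) or lowest (blue) value among the 8 aerobic arrays falls on each array, in time order; the right panel counts those beyond all other aerobic arrays by more than 1 log2 unit. The 9.6 h array holds 1952 highest and 1304 lowest values, and 546 of the lowest are more than 1 unit below every other array.

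SRP40, a serine-rich nucleolar protein that accompanies small nucleolar ribonucleoproteins, marks the sample. It had 3.49 log2 units at 9.6 h, against 11.89, 11.92 and 8.15 at 4.1, 6.85 and 14.5 h and 9.87 to 10.90 at the other 4 aerobic times. The 9.6 h value was the lowest of all 16 arrays, with the 14.5 h value the next lowest, and the anaerobic arrays spanned 9.38 to 12.37. Counted from 4, SRP40 was at least 7.89 log2 units below the median of its neighbours. At 14.5 h it had come 55.4% of the way back towards the mean of 4.1 and 6.85 h.

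The genes farthest below the range were almost all factors of ribosome synthesis. DBP3, a helicase of large subunit assembly, had 2.32 log2 units at 9.6 h, against 12.53, 12.66 and 11.56 at the 3 neighbours and 11.60 to 12.12 at the other aerobic times. KRE33, which acetylates ribosomal and transfer RNA, had 2.12 at 9.6 h, against 11.98, 12.00 and 11.12 at the neighbours. NSR1, a nucleolin-like protein, had 4.53 at 9.6 h, against 13.32, 13.42 and 11.94. In each case the 7 other aerobic arrays stayed together within 2 log2 units and the 9.6 h array lay apart. A further 8 of the 15 farthest below, YTM1, NOG1, HAS1, BFR2, PWP1, RSA4, NOP13 and UTP14, act in the assembly of 1 or both subunits, and 2 more, RPA43 and RPA49, are subunits of RNA polymerase I. LIA1, which completes the hypusine modification of translation factor eIF5A, had 5.49 at 9.6 h, against 13.35, 13.60 and 12.31. The only enzyme of small-molecule metabolism among them was URA7, the major CTP synthase, with 3.66 at 9.6 h, against 13.34, 13.39 and 11.72, a difference of at least 9.34 log2 units from the neighbour median.

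The small subunit processome list held 53 measured genes, and all 53 lay below the range, 49 of them by more than 1 log2 unit. Their mean level was 6.38 log2 units at 9.6 h, against 11.77, 11.84 and 11.11 at 4.1, 6.85 and 14.5 h, 10.98 to 11.39 at the other aerobic times and 10.50 to 11.88 on the anaerobic arrays. No other array came near the 9.6 h value. That mean includes 10 members under 4 log2 units at 9.6 h, whose values give only bounds. The median difference from the neighbours was -5.56 log2 units, or -5.35 with values under 4 set to 4, beside 0.25 for all genes, and members ran from -1.04 to at least 8.03 log2 units below, counted from 4. UTP13, part of the complex that first binds the precursor, had 2.45 at 9.6 h, against 12.30, 12.03 and 10.85 at the neighbours. SAS10, which binds the U3 particle, had 2.63 at 9.6 h, against 11.47, 11.71 and 10.98. UTP8 and PWP2 had 1.99 and 2.12 at 9.6 h, near the floor of the scale, and neighbour values between 9.68 and 11.61.

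Of 71 large subunit assembly genes, 70 lay below the range, 67 by more than 1 log2 unit, with a median difference of -5.44. Their mean was 6.59 at 9.6 h, against 11.90, 11.97 and 11.22 at the neighbours. The 9.6 h mean includes 12 members under 4 log2 units, whose values give only bounds. NOP7, a scaffold of the pre-60S particle, had 2.56 at 9.6 h, against 12.09, 12.35 and 10.81, and DRS1, a helicase, had 2.67 at 9.6 h, against 11.73, 11.85 and 10.26. The 1 member that stayed inside the range was RSA1, with 9.46 at 9.6 h, against 8.57, 8.60 and 8.67 at the neighbours and 9.66 at 0 h. It is named here after its value was seen.

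Core proteins of the small nucleolar particles, which guide methylation and pseudouridine formation in ribosomal RNA, and their chaperones lay below the range for 21 of 22 genes, with a median difference of -3.28. NOP56, a core protein of the methylating particles, had 7.34 at 9.6 h, against 13.72, 13.93 and 12.24, and GAR1, of the pseudouridylating ones, had 7.84 at 9.6 h, against 14.19, 14.20 and 12.96. Both remained well above the floor, unlike SRP40. PIH1, a co-chaperone and the exception, had 10.60 at 9.6 h, against 10.18, 9.47 and 10.32.

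Of 15 genes of RNA polymerase I and its initiation factors, 13 lay below the range and 2 above it, with a median difference of -2.14. The subunits RPA49, RPA43 and RPA12 had 2.87, 3.92 and 5.26 at 9.6 h, against neighbour medians more than 6 log2 units higher. RRN11, of the core initiation factor, had 3.49 at 9.6 h, against 10.45, 10.66 and 8.31. The 2 genes above, named after their values were seen, also encode parts of initiation factors, so these factors lay on both sides: RRN10 had 10.26 at 9.6 h, against 9.20, 8.89 and 9.86, and RRN9 had 10.11, against 10.07, 10.07 and 9.80, which is 0.04 above the range.

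In the polymerase III list 12 of 21 genes lay below and 7 above, with a median difference of -1.32. All 12 below were polymerase subunits, led by RPC40, which polymerases I and III share, with 8.99 at 9.6 h, against 13.43, 13.40 and 12.57, and RPC31, with 6.91 at 9.6 h, against 11.03, 10.87 and 9.70. The 7 above were the initiation factor genes TFC1, TFC3, TFC4, TFC8, BDP1 and BRF1 and the repressor MAF1. MAF1, which shuts polymerase III off when nutrients run short, had 12.64 at 9.6 h, against 11.27, 11.36 and 12.38 at the neighbours and 11.97 to 12.41 at the other aerobic times. None of these 7 was more than 1 log2 unit above the range.

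Among the exosome and its helpers, which trim RNA precursors, 15 of 19 lay below and 1 above, with a median difference of -0.77. MTR4, the nuclear helicase of the exosome, had 5.07 at 9.6 h, against 11.94, 12.01 and 11.40, whereas core subunits of the complex differed less: SKI6 had 9.40 at 9.6 h, against 11.96, 11.77 and 10.74. SKI7, the cytoplasmic adaptor and the 1 gene above, had 11.69 at 9.6 h, against 10.78, 10.39 and 11.24. The lists of the processome, large subunit assembly, small nucleolar particles and polymerases I and III together hold 182 genes, of which 169 lay below the range and 9 above. They make up 3.49% of the genes measured and 27.3% of the 546 genes more than 1 log2 unit below.

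Ribosomal proteins of the cytosol lay below the range by smaller differences. All 52 small subunit proteins lay below the range, with a median difference of -2.51, and 73 of 75 large subunit proteins did, with a median difference of -2.83. The large subunit list averaged 12.20 log2 units at 9.6 h, against 15.13, 15.11 and 14.49 at 4.1, 6.85 and 14.5 h, 14.64 to 14.78 at the other aerobic times and 14.65 to 15.16 on the anaerobic arrays. RPL13A had 9.04 at 9.6 h, against 14.55, 14.47 and 13.20, and RPS26B had 9.80, against 15.37, 15.13 and 13.94. At the other end of the small subunit list the smallest difference was -0.76. RPL15B was the only member above the range, with 12.41 at 9.6 h, against 11.94, 11.74 and 12.07. It lay only just above, since the other aerobic times had 11.74 to 12.35. Its paralog RPL15A had 13.61, against 15.54, 15.51 and 14.88. RPL41A, on a probe set shared with related sequence, lay inside the range. Of the ribosomal protein genes measured, 12 in each subunit are on such shared probe sets, so paralogs there are not separated. Both lists together hold 22.2% of the genes more than 1 unit below.

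Genes that feed translation lay below the range more moderately. Of 33 translation factors, 28 lay below, with a median difference of -1.22. TIF4631, the scaffold eIF4G1, had 10.49 at 9.6 h, against 13.37, 13.31 and 12.50, and NIP1, of eIF3, had 10.83, against 13.64, 13.77 and 12.78. Of 19 cytosolic aminoacyl-tRNA synthetases, 17 lay below, median difference -1.39, or -0.91 from the median of all 7 other aerobic arrays. KRS1, the lysyl enzyme, had 8.28 at 9.6 h, against 10.51, 10.55 and 9.66. The glutamyl enzyme GUS1 lay above, by 0.18. Of 36 tRNA modification genes, 29 lay below, median difference -2.05. TRM11 and DUS3, which methylate and reduce bases of tRNA, had 2.29 and 3.52 at 9.6 h, against neighbour values between 9.40 and 11.30.

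Mitochondrial ribosomal proteins showed another pattern. Although 59 of 72 lay below the range, only 1 did so by more than 1 log2 unit. Their mean was 11.25 at 9.6 h, against 13.24, 13.11 and 11.53 at 4.1, 6.85 and 14.5 h and 11.70 to 11.94 at the other aerobic times. The arrays at 4.1 and 6.85 h were the high ones, and those from 9.6 h onward lay close together. MRPL20 had 9.92 at 9.6 h, against 13.09, 13.11 and 10.56. The median difference of -1.86 from the neighbours was -0.54 from the median of all 7 other aerobic arrays, and -1.07 without the 4.1 h array or -1.11 without the 6.85 h array.

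**Figure D2:**
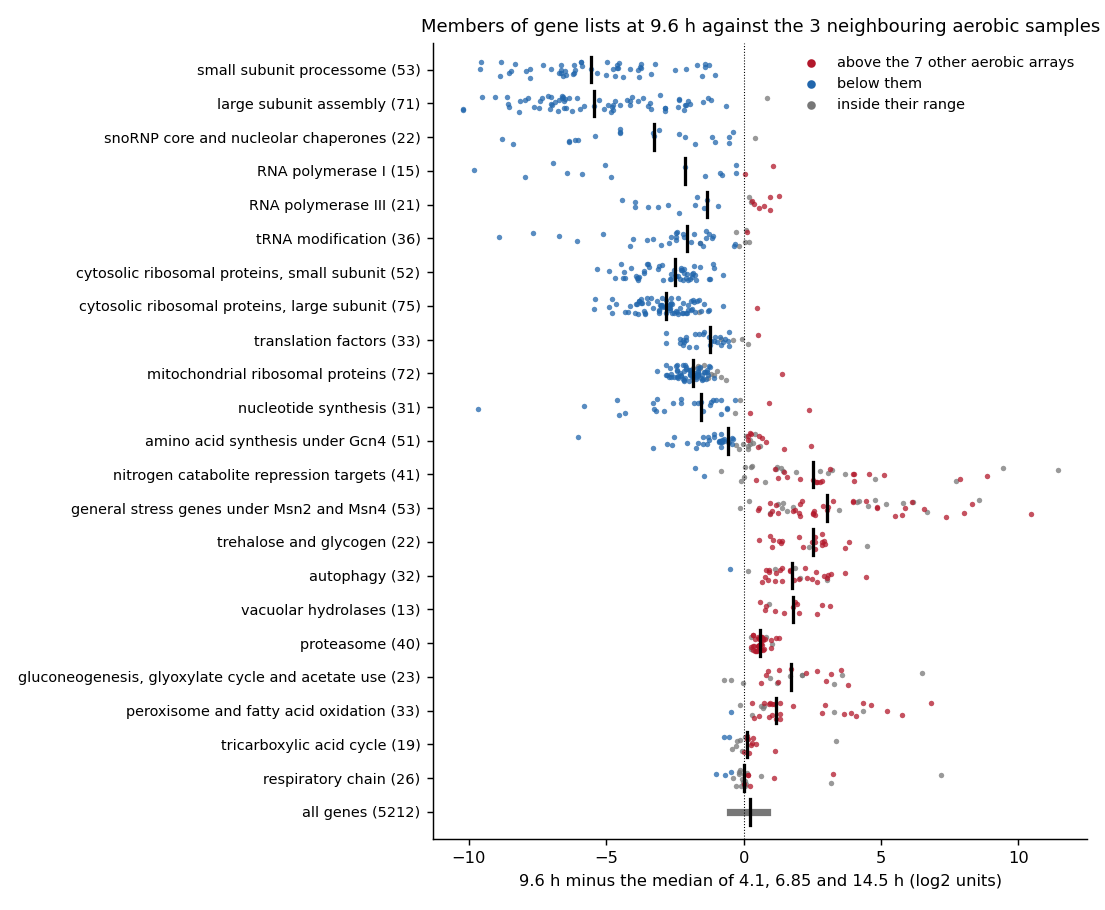
Each point is 1 gene of a list, placed by its difference at 9.6 h from the median of the 3 neighbouring aerobic samples in log2 units; red lies above and blue below the range of the 7 other aerobic arrays, grey inside it, and the black bar is the list median. The grey bar at the bottom runs from the first to the last quartile of all genes. The lists of ribosome synthesis lie to the left, with medians down to -5.56, and the lists of stress, storage and nitrogen genes to the right, with medians up to 3.04.

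Nucleotide synthesis accompanied the ribosome genes: 26 of 31 lay below the range and 3 above, with a median difference of -1.56. IMD3 and IMD4, both inosine monophosphate dehydrogenases of GTP synthesis, had 9.53 and 6.25 at 9.6 h. At the neighbours IMD3 had 14.13, 14.24 and 13.72 and IMD4 had 12.08, 12.39 and 9.10. GUA1, the next enzyme of that branch, had 10.12 at 9.6 h, against 14.64, 14.77 and 14.27. Like URA7, these are among the enzymes of GTP and CTP synthesis. Of the 3 genes above, named after their values were seen, URA10 had 11.15 at 9.6 h, against 8.75, 8.60 and 10.51, and ADE16 and URA3 differed by less than 1 log2 unit.

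Folate-dependent one-carbon, polyamine and methyl metabolism had 12 of 20 genes below and 2 above, with a median difference of -0.56. MIS1, a mitochondrial folate enzyme, had 8.97 at 9.6 h, against 13.48, 13.53 and 12.38, and SHM2, the cytosolic serine hydroxymethyltransferase, had 11.94, against 15.14, 15.11 and 14.37. In sulfate assimilation and methionine synthesis 13 of 26 lay below and none above. MET1 and MET8, which make the siroheme of sulfite reductase, had 11.03 and 9.61 at 9.6 h and neighbour values between 12.08 and 13.78.

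Amino acid biosynthesis under the activator Gcn4 was mixed, with 29 of 51 genes below, 10 above and 12 inside, and a median difference of -0.57, or -0.35 from the median of all 7 others. LEU9, an isopropylmalate synthase, had 6.21 at 9.6 h, against 12.24, 12.40 and 10.44, and HOM3, aspartate kinase, had 10.91, against 14.32, 14.22 and 13.96. BAT2, the cytosolic branched-chain aminotransferase, lay on the other side with 14.67 at 9.6 h, against 12.05, 12.22 and 13.79. GCN4 itself lay inside the range, at 15.66 against 15.41, 15.50 and 15.89. BAT2 and GCN4 were picked after their values were seen.

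The nitrogen catabolite repression targets stood higher than at 4.1 and 6.85 h. Of 41 genes, 19 lay above the range, 4 of them by more than 1 log2 unit, 2 below and 20 inside. Among all genes, 37.5% lay above and 25.0% below. Of the 41 targets, 37 were higher than at both 4.1 and 6.85 h. In 35 of these 37 the 14.5 h value was higher than at both earlier times as well. Over all genes, 3025 of 5212 were higher than at both earlier times, and 2372 of these were so at 14.5 h as well. The list averaged 13.41 at 9.6 h, against 10.51, 10.53 and 13.05 at 4.1, 6.85 and 14.5 h, 11.54 at 0 h and 13.28 to 13.32 from 27.25 h on. Its median difference was 2.53 from the 3 neighbours, of which 2 were low, but 0.24 from the median of the 7 other aerobic arrays, of which 4 were about as high. All genes had 0.13 from the median of those 7. Without the 4.1 h array the list had 1.46 from its neighbours, and without the 6.85 h array 1.53. In the anaerobic series the mean was 10.23 to 11.75 up to 35.67 h and 12.24 and 12.29 at the last 2 times.

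Individual genes of this system had different time courses. DAL80, a repressor that is itself under nitrogen control, had 14.71 at 9.6 h, against 3.27, 3.26 and 14.64 at the neighbours. OPT2, a peptide transporter, had 11.54 at 9.6 h, against 2.03, 2.08 and 13.91. In both, 14.5 h was as high as 9.6 h or higher. DAL4, the allantoin permease, had 15.41 at 9.6 h, against 6.55, 4.99 and 13.48, and DAL1, allantoinase, had 12.05, against 3.32, 4.16 and 11.01. The general amino acid permease GAP1 reached 15.79 at 9.6 h, against 12.72, 12.60 and 15.83, and lay inside the range.

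Arginine breakdown behaved differently. CAR1, arginase, had 15.78 at 9.6 h, against 12.10, 11.74 and 11.64 at the neighbours and 10.66 to 12.63 at the other aerobic times. CAR2, the next enzyme, had 15.60, against 11.63, 11.17 and 12.26, with 14.11 at 0 h. Both were high at 9.6 h and back near the earlier level at 14.5 h. The 2 genes below the range, the amino acid permeases AGP1 and BAP2, had 9.94 and 8.88 at 9.6 h and neighbour values of 10.53 to 11.75 for AGP1 and 9.24 to 11.18 for BAP2. CAR2, GAP1, AGP1 and BAP2 were picked after their values were seen.

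Breakdown of aromatic amino acids was not among the lists but supplied ARO10, a phenylpyruvate decarboxylase of the pathway to fusel alcohols, to the 15 genes farthest above. ARO10 had 14.40 at 9.6 h, against 5.43, 3.84 and 9.38, and 12.11 at 0 h. ARO9, the aromatic aminotransferase, had 13.98 at 9.6 h, against 8.61, 8.40 and 9.39, and ARO80, the activator of both, had 11.71, against 9.67, 9.21 and 10.65. All of them lay more than 1 log2 unit above the range. ARO9 and ARO80 were picked after their values were seen.

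General stress genes under Msn2 and Msn4 lay above the range for 35 of 53 genes and below it for none, with a median difference of 3.04, or 1.14 from the median of the 7 other aerobic arrays. It was 1.85 without the 4.1 h array and 1.99 without the 6.85 h array. The list averaged 13.91 at 9.6 h, against 10.12, 10.13 and 13.05 at 4.1, 6.85 and 14.5 h, 13.64 at 0 h and 12.29 at 53.95 h. The 0 h array was the nearest to it. PHM7 had 14.53 at 9.6 h, against 2.36, 4.08 and 11.90, and 13.28 at 0 h. CTT1, the cytosolic catalase, had 13.71 at 9.6 h, against 5.39, 4.95 and 9.73, and 13.17 at 0 h. FMP45, a protein of the cell surface, had 12.65 at 9.6 h, against 4.08, 2.54 and 9.22, and lay inside the range because of 13.08 at 0 h. With the 0 h array set aside 42 members lay above the other 6 arrays, and 7 of these were at or under their 0 h value. Over all genes that comparison gave 2125 of 5212, with 173 at or under 0 h.

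Storage carbohydrate genes followed, with 20 of 22 above and none below, median difference 2.53, or 1.07 from all 7 others. GSY2, the main glycogen synthase, had 14.33 at 9.6 h, against 11.23, 11.38 and 12.46, and TPS1, trehalose phosphate synthase, had 15.02, against 13.00, 12.90 and 14.12. Synthesis and breakdown lay on the same side, since the trehalases NTH1, NTH2 and ATH1 and the phosphorylase GPH1 were also above the range, by differences from the neighbours of 2.17, 2.61, 2.58 and 2.62.

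The machinery of protein and organelle breakdown was high too. Of 32 autophagy genes, 26 lay above and 1 below, with a median difference of 1.77, or 0.60 from all 7 others and 1.15 without the 6.85 h array. ATG29 and ATG31, partners in the scaffold that starts autophagosomes, had 9.94 and 12.57 at 9.6 h. At the neighbours ATG29 had 6.24, 6.18 and 7.99 and ATG31 had 9.39, 9.32 and 11.65. ATG14, of the lipid kinase complex, had 10.71 at 9.6 h, against 6.25, 5.96 and 9.58. Of 13 vacuolar hydrolase genes, 12 lay above, with PRB1, proteinase B, at 15.65 at 9.6 h, against 13.65, 13.46 and 15.22. The proteasome list differed evenly but little: 36 of 40 lay above the range, none by more than 1 log2 unit, with a median difference of 0.59 and all 40 members between 0.28 and 1.28.

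Gluconeogenesis and peroxisome genes, which glucose represses, were also high at 9.6 h. In gluconeogenesis, the glyoxylate cycle and acetate use, 12 of 23 lay above and none below, with a median difference of 1.73. FBP1, fructose bisphosphatase, had 14.64 at 9.6 h, against 8.20, 11.77 and 11.48, and 11.81 at 0 h. PCK1, the other dedicated enzyme of gluconeogenesis, had 15.16, against 9.55, 12.16 and 13.64. ADY2, an acetate transporter, had 13.47 at 9.6 h, against 4.65, 6.97 and 7.78, and 14.80 at 0 h. The list averaged 14.22 at 9.6 h, against 11.47, 12.42 and 12.49, with 13.99 at 0 h and 10.09 at 53.95 h, so the first and the 9.6 h arrays were the high ones. Without the 0 h array, 20 of 23 lay above the 6 others.

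Peroxisome and fatty acid oxidation genes lay above for 25 of 33 and below for 1, median difference 1.19, or 0.76 from all 7 others. POT1, the thiolase of beta-oxidation, had 14.17 at 9.6 h, against 7.23, 8.40 and 11.34, with 13.96 at 0 h. CTA1, the peroxisomal catalase, had 14.39, against 6.99, 9.15 and 10.84, with 14.16 at 0 h. PEX18, which imports proteins into the organelle, had 9.86 at 9.6 h, against 3.04, 2.24 and 8.69.

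STL1 was farthest above of all genes. This glycerol-proton symporter, repressed by glucose, had 13.55 at 9.6 h, against 2.20, 2.97 and 2.38 at 4.1, 6.85 and 14.5 h, 8.41 at 0 h and at most 7.66 on the anaerobic arrays. Counted from 4, it was at least 9.55 log2 units above its neighbours, and it was back at the floor at 14.5 h. Of 15 hexose transporter and glucose sensing genes, 5 lay above the range and 1 below, beside 37.5% and 25.0% of all genes. The hexose transporter HXT5, known from slow growth, had 15.12 at 9.6 h, against 8.16, 9.25 and 14.50, with 14.98 at 0 h. HXT1, the low-affinity transporter of glucose-rich medium, had 4.39 at 9.6 h, against values under 4 at all 3 neighbours and up to 8.12 at later times.

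Central carbon metabolism as a whole differed little. In glycolysis 14 of 20 genes lay inside the range, 2 above and 4 below, and in the respiratory chain 17 of 26 lay inside, with list medians of 0.06 and 0.02 whose sign depends on the scaling. The tricarboxylic acid cycle had 10 of 19 above and 2 below but a median difference of only 0.12, under the 0.25 of all genes. With centred arrays 5 of the 19 lay above and the median was -0.024. PYK2, a pyruvate kinase expressed without glucose, had 12.39 at 9.6 h, against 10.99, 10.93 and 11.00. NDE2, an external NADH dehydrogenase, had 13.30 at 9.6 h, against 6.11, 5.38 and 11.79, and lay inside the range because of 13.41 at 0 h. SHH4, a homolog of a succinate dehydrogenase anchor and 1 of the 15 genes farthest above, had 14.76, against 8.57, 8.61 and 12.89.

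**Figure D3:**
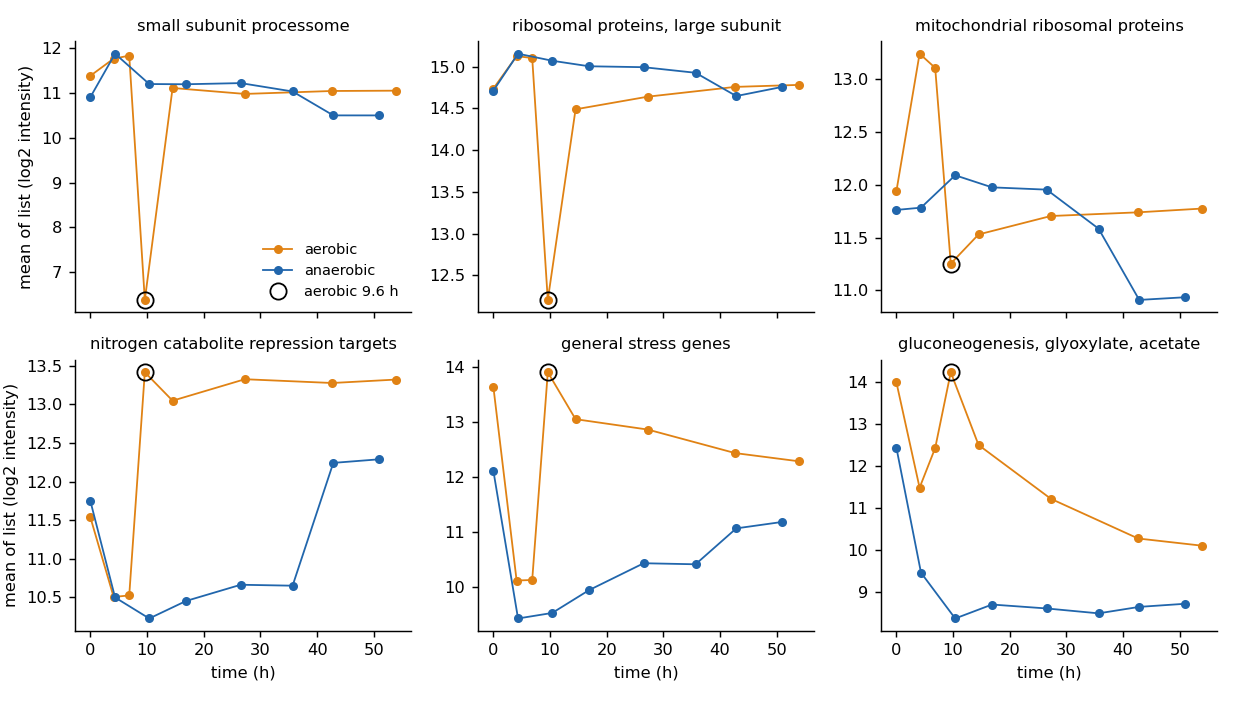
Mean log2 intensity of 6 gene lists on every array against time, aerobic in orange and anaerobic in blue, with the aerobic 9.6 h array circled; the vertical scales differ. Both cytosolic ribosome lists show a single low point at 9.6 h (6.38 and 12.20), the mitochondrial ribosomal proteins high points at 4.1 and 6.85 h, the nitrogen targets high values from 9.6 h on, and the stress and gluconeogenesis lists high points at 0 and 9.6 h.

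Of 21 phosphate genes 9 lay above and 4 below, shares near those of all genes. SPL2, known as a negative regulator of the low-affinity phosphate transporters, had 8.71 at 9.6 h, against 2.23, 1.98 and 3.59, and lay 4.39 log2 units or more above every other aerobic array. PHO90, such a transporter, had 10.08 at 9.6 h, against 12.47, 12.51 and 12.51, and its relative PHO87 was also below the range. PHO84, the high-affinity transporter, was under 4 both at 9.6 h and at 14.5 h, at 3.11 and 3.18, with 8.19 and 7.37 at 4.1 and 6.85 h. PHM8, a nucleotide phosphatase, had 10.83 at 9.6 h, against 2.96, 2.56 and 9.76.

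Of 38 chaperone genes 26 lay inside the range. The ribosome-bound SSB1 and SSB2 were the lowest of the list: SSB2 had 12.19 at 9.6 h, against 15.24, 15.33 and 14.96, and SSB1, on a shared probe set, had 13.12, against 15.76, 15.77 and 15.55. SSE2, a heat shock protein, had 12.78, against 9.77, 9.58 and 13.08. In oxidative defence 19 of 33 lay above and 3 below, median difference 0.63, or 0.39 from all 7 others. Sterol synthesis had 16 of 25 above and 1 below, with a median difference of 0.64, or 0.42 without the 6.85 h array. HMG2, a reductase of the mevalonate pathway, had 13.27 at 9.6 h, against 11.60, 11.53 and 12.49.

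Of 23 nuclear transport genes 5 lay above, 8 below and 10 inside. KAP123, the main importer of ribosomal proteins, had 10.53 at 9.6 h, against 13.63, 13.70 and 13.28, and LOS1, the exporter of tRNA, had 9.15, against 11.66, 11.50 and 10.57. GSP2, a second gene for the GTPase Ran, lay above the range with 14.65 at 9.6 h, against 11.08, 11.46 and 13.59, while GSP1, the major one, lay below it with 13.44, against 14.93, 14.94 and 14.40.

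Among cell cycle lists, G2 and mitosis genes lay above the range for 16 of 28 and below for none, with a median difference of 0.66. Histones lay above for 7 of 10, but their median of 0.14 was under the 0.25 of all genes. With centred arrays it was 0.018. Late mitosis and cell separation genes lay above for 11 of 16 and below for 1, with a median difference of 0.46. Of 42 G1 and DNA replication genes 12 lay above and 6 below, and the sign of their median of 0.03 depends on the scaling. DBF2, a kinase of mitotic exit, had 13.08 at 9.6 h, against 11.88, 11.70 and 12.48. Markers of mating type did not set the sample apart: of 9 a-cell genes 8 lay inside the range, and all 3 alpha-cell genes did. Of 15 meiosis and sporulation genes 12 lay inside and 3 above, with a median difference of 1.24, or 0.24 without the filter on low values. Their mean was 7.35 at 9.6 h, against 6.17, 5.81 and 6.32 at the neighbours and 7.37 at 0 h. With the 0 h array set aside 7 of the 15 lay above the other 6 arrays, and 4 of these were at or under 0 h. The a-cell list averaged 12.92 at 9.6 h, against 11.44 to 13.76 on the other aerobic arrays, and the alpha-cell list 8.39, against 6.89 to 11.02. MFA1, an a-factor gene, had 15.41 at 9.6 h, against 13.03, 13.65 and 15.72, and MF(ALPHA)1, for alpha-factor, had 5.92, against 5.27, 6.02 and 10.54 (both picked after their values were seen). In a bulk culture fewer cells of a kind and less RNA per cell cannot be told apart.

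Several genes farthest above belong to no list. CWP1, a cell wall mannoprotein, had 14.02 at 9.6 h, against 10.46, 9.35 and 11.05, and WSC3, a sensor of the wall, had 12.21, against 10.54, 10.22 and 10.35. MST27, which acts in vesicle formation, had 6.34 at 9.6 h and was under 3 on every other array. It is 1 of 6 genes that reached 4 log2 units on no other aerobic array and so were kept through the 9.6 h array alone. RTA1 had 8.70, against 5.08, 3.73 and 4.93, but reached 9.11 on an anaerobic array. HFM1, a meiotic helicase, and ULA1, which activates the ubiquitin-like protein Rub1, had 6.84 and 12.69 at 9.6 h and lay 1.75 and 1.67 above the range. YKL091C had 14.34 at 9.6 h, against 11.72, 11.66 and 12.63.

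**Figure D4:**
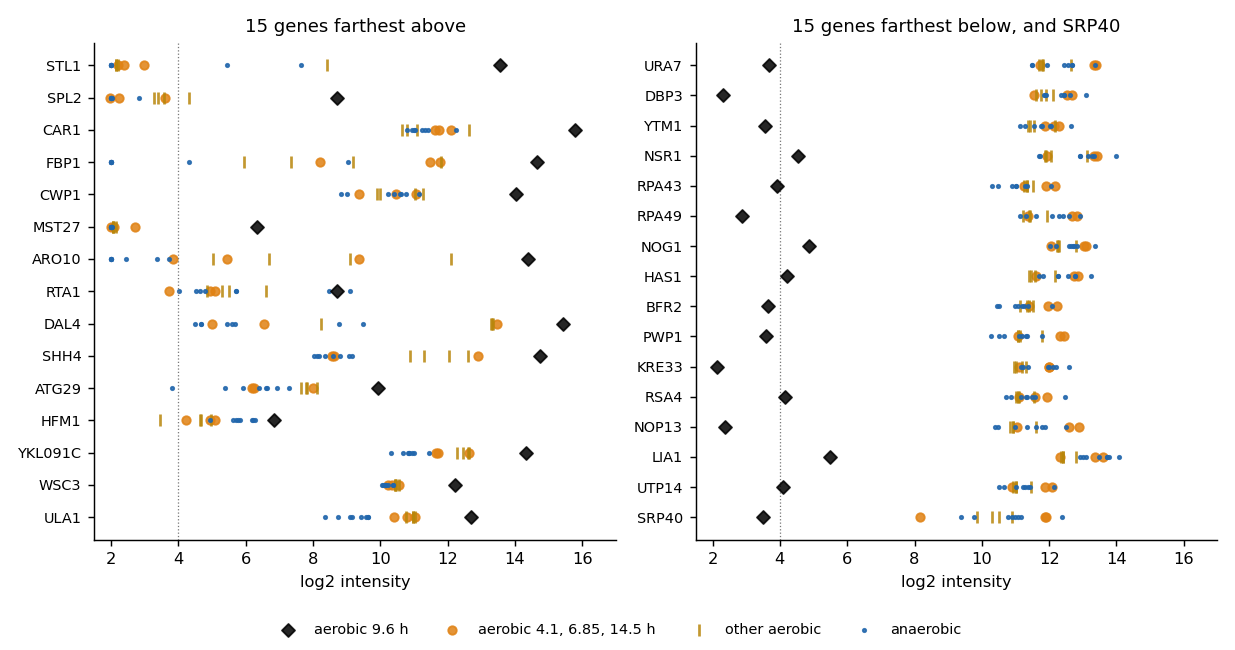
Log2 intensity of the 15 genes farthest above (left) and the 15 farthest below the range, with SRP40 (right), on every array; the black diamond is the aerobic 9.6 h array, orange circles its 3 neighbours, vertical ticks the other 4 aerobic arrays, and blue dots the 8 anaerobic arrays. The dotted line marks 4 log2 units. On the right every other array lies at 8 or more and the diamond at 5.49 or less.

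At 14.5 h most of the genes far below the range were nearer to their earlier level. Placing each gene on a line from its 9.6 h value to the mean of 4.1 and 6.85 h, the 546 genes more than 1 log2 unit below the range had come a median of 82.9% of the way by 14.5 h, and 531 of them at least 50%. The 110 genes more than 1 unit above had come 64.0%, and 69 of them at least 50%. The median was 76.4% for all 1304 genes below (959 at least 50%) and 54.8% for all 1952 above (1094 at least 50%), beside 49.2% for all genes. Since an extreme 9.6 h value was what the rule chose, a later value nearer the others is no test. The small subunit processome had a list median of -5.62 relative to the 2 earlier arrays at 9.6 h and -0.68 at 14.5 h, and large subunit ribosomal proteins had -2.85 and -0.53. The mitochondrial ribosomal proteins stayed, with -1.92 at 9.6 h and -1.70 at 14.5 h. The stress list was at 3.13 and 2.37 and gluconeogenesis at 2.22 and 0.55. Of the genes below, 479 of 1304 had their next lowest value at 14.5 h, and the 14.5 h array was also the next highest for 530 of the 1952 above.

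**Figure D5:**
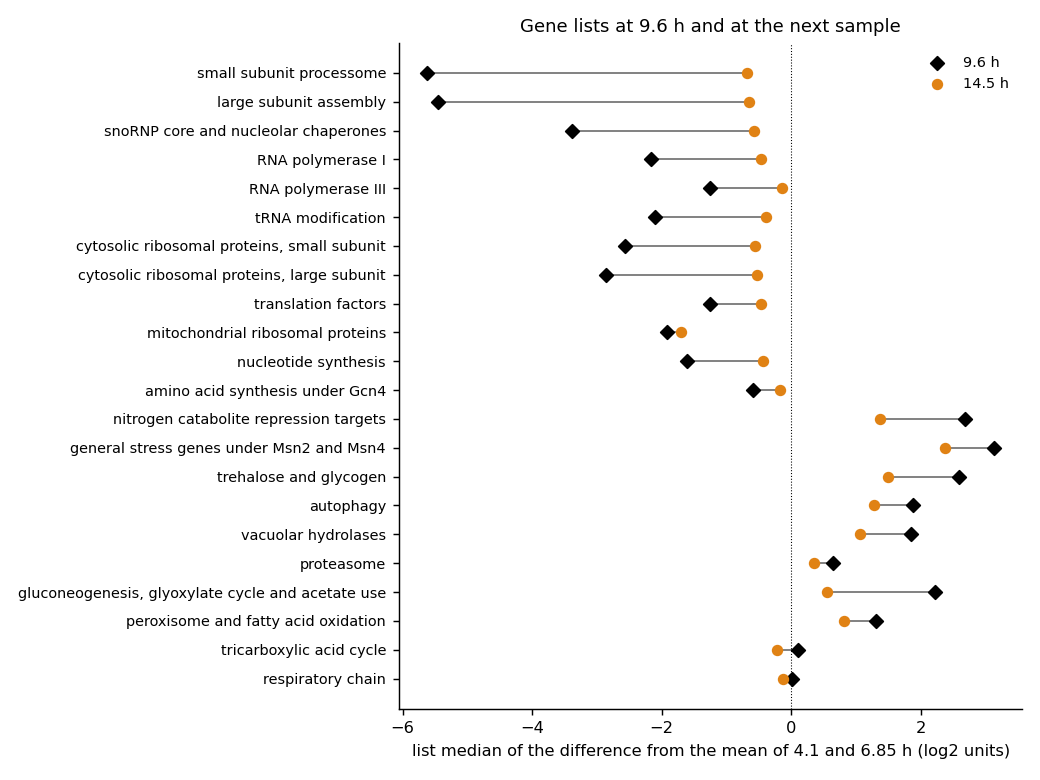
For 22 gene lists, the median over members of the difference from the mean of the 4.1 and 6.85 h arrays, at 9.6 h (black diamond) and at 14.5 h (orange circle), in log2 units. Ribosome synthesis lists run from -5.62 at 9.6 h to within 0.68 of the earlier level, while the mitochondrial ribosomal proteins stay at -1.70 and the stress list at 2.37.

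The anaerobic arrays were not used by the rule. Of the 1952 genes above the aerobic range, 1840 (94.3%) were also above all 8 anaerobic arrays. Of the 1304 below, 851 (65.3%) were also below all 8. These genes, outside both ranges, make up 35.3% and 16.3% of all genes. The share of all genes beyond the 8 anaerobic arrays was not counted, so nothing is read from 94.3% and 65.3%. Of the 546 genes more than 1 log2 unit below, 537 were lower than on every anaerobic array. The anaerobic arrays had medians over all probe sets of 10.78 to 10.97 log2 units, under the 11.50 of the 9.6 h array. That favours values above them and works against values below. Oxygen and culture cannot be told apart. At the anaerobic times nearest in feed glucose, 10.38 h (10.31 g/L) and 16.88 h (16.19 g/L), the small subunit processome averaged 11.20 on both arrays.

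Of 36 genes with at least 2 measured probe sets, 35 had differences of the same sign on all of them, and none lay above the range on 1 probe set and below it on another. With genes ordered into 4 equal groups by their level on the other aerobic arrays, the share above the range lay between 36.4% and 38.4%, and the share below between 19.4% in the lowest group and 30.9% in the highest. The genes more than 1 log2 unit below had a median gene length of 1129.5 bp, against 1266.5 bp for all genes. At the edge of the range, IDH1 was the nearest call above and ECM34 the nearest below, both within 0.01 log2 units of the limit, and PAT1 and BCK2 lay just inside.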

How the data were processed

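Each array measured biotin-labelled cRNA made from total RNA of whole culture samples on an Affymetrix yeast array. The log2 intensities were computed with GCRMA before the authors deposited them, per the submitters' processing notes. Their scale was read from the range of 1.96 to 16.75. The version, the options and the set of arrays normalized with each other were not given in the sources used here. Total RNA per cell was not measured. No detection calls were used, and precision is limited by the number of arrays.

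The 5716 probe sets comprised 5498 with a single gene symbol, 0 with more than 1 and 218 with no symbol; all 5498 matched RefSeq and 12 symbols were updated. Of 47 genes with several probe sets, the one with the highest mean was used. Of 5449 genes, 5212 had at least 4 log2 units on 1 or more aerobic arrays and 237 were left out; 6 passed only through the 9.6 h array. A gene lay outside when its 9.6 h value was beyond all 7 other aerobic arrays. Differences are 9.6 h minus the median of the arrays at 4.1, 6.85 and 14.5 h. The percent of the way back is the change from 9.6 to 14.5 h over the change from 9.6 h to the mean of 4.1 and 6.85 h. Work used Python 3.11.15, pandas 2.3.3 and numpy 2.4.6, tested on simulated data.

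The members and the 48 gene lists were chosen with earlier results of these data known. Named genes were SRP40, the 15 farthest from the range on each side, up to 4 of each list by size of difference, paralogs and the genes nearest the limits; others, which include list exceptions and TPS1, NTH1, NTH2, ATH1, GPH1, PCK1, PHO87, SKI7, PIH1 and the 7 polymerase III genes above the range, were picked after their values were seen. Alternatives were other scalings, filters, ranges and comparators.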

Additional observations from a re-analysis of the deposited data

Results flagged for a closer look

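Each set of 4 or 8 arrays of a gene list mean, or of SRP40, was looked at for 1 array far from the rest, over 28 sets, of which 6 had one. Chance flags about 1 in 20 groups, and the arrays within a set differ in time. None of these sets includes the 9.6 h array. Among the aerobic arrays at 0, 27.25, 42.65 and 53.95 h, the nitrogen catabolite repression targets were lowest at 0 h, with a mean of 11.54 log2 units, and the next value was 13.28. The large subunit assembly genes were highest at 0 h, at 11.52, with 11.17 next. Autophagy genes were highest at 27.25 h, at 10.96, with 10.87 next, a small gap. In the anaerobic series, gluconeogenesis, glyoxylate and acetate genes were highest at 0 h, at 12.43, with 9.45 next. Peroxisome and fatty acid oxidation genes were highest at 0 h too, at 11.05, with 9.57 next. The anaerobic proteasome mean was lowest at 4.35 h, at 12.85, with 13.10 next.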

How the results depend on the processing

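With 1 array at 9.6 h and no replicate, no value here has an error of its own, weak signals have no detection calls, and values under 4 log2 units give only bounds. No paired analysis was possible because 9.6 h is a single array and the result comes from no test. The search of promoters for motifs was not run, as no sequence was used here. The counts of 1952 genes above and 1304 below stayed within 1800 to 2548 and 1259 to 1559 under the other filters, scalings and ranges, apart from these: a margin of 1 log2 unit left 110 above and 546 below, a margin of 2 left 10 and 336, and the range of all 15 other arrays left 851 below. Without each neighbour in turn there were 1968 to 2029 above and 1317 to 1373 below. Of 598 list medians under alternatives, 523 moved by less than the spread between neighbours, 71 moved by more, and 4 took the other sign from a median larger than that spread. In all, 22 values of 9 lists had the other sign. Of 2639 gene differences, 220 moved by more than the spread, and 13 values of 11 genes had the other sign. The cause was not tested.

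With arrays centred on their medians, the list medians were -1.45 for RNA polymerase III, -0.90 for the exosome, -0.73 for Gcn4 targets, -0.024 for the tricarboxylic acid cycle (other sign), -0.10 for the respiratory chain (other sign), -0.30 for ATP synthase, -0.53 for sulfate assimilation, 0.018 for histones, -0.10 for G1 and DNA replication (other sign), 0.33 for late mitosis, -0.16 for the secretory pathway and -0.72 for one-carbon metabolism. Against the mean of the 3 neighbours they were -1.39 for RNA polymerase III and 0.12 for histones. Without the filter on low values, meiosis genes had 0.24.

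Against the median of the 7 other aerobic arrays, ribosome and translation lists had -4.75 (small subunit processome), -4.87 (large subunit assembly), -2.99 (small nucleolar particles), -1.06 (RNA polymerase III), -0.92 (exosome), -0.91 (tRNA synthetases), -0.94 (translation factors), -2.47 (large subunit proteins) and -0.54 (mitochondrial ribosomal proteins). Metabolic lists had -0.35 (Gcn4 targets), 0.24 (nitrogen targets), 0.23 (hexose transporters), 0.76 (peroxisome), 0.30 (tricarboxylic acid cycle), 0.088 (respiratory chain), -0.087 (ATP synthase), 1.07 (trehalose and glycogen), 0.27 (phosphate), 0.37 (iron, other sign, -0.92 as reported) and -0.49 (sulfate). The remaining lists had 1.14 (general stress), 0.39 (oxidative defence), 0.60 (autophagy), 0.63 (vacuolar hydrolases), 0.083 (histones), 0.49 (G2 and mitosis), 0.50 (late mitosis), 0.48 (stationary phase), 0.16 (ribonucleotide reductase and DNA damage), -0.10 (a-cell genes, other sign) and -0.14 (pheromone response, other sign).

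Quantile normalization of the aerobic arrays gave -4.75 for the small subunit processome, -4.57 for large subunit assembly, -2.94 for small nucleolar particles, -0.10 for ATP synthase, 0.21 for histones, -0.083 for G1 and DNA replication (other sign) and 0.52 for G2 and mitosis. Over all 16 arrays it gave -4.88 and -4.61 for the processome and large subunit assembly, -1.77 for nucleotide synthesis, -0.10 for ATP synthase, 0.23 for histones, -0.087 for G1 and DNA replication (other sign) and 0.54 for late mitosis. Leaving out each neighbour in turn gave -1.44 to -1.26 for RNA polymerase III, -5.45 to -5.08 for large subunit assembly, -0.94 to -0.71 for the exosome, 1.78 to 2.28 for gluconeogenesis, 0.0042 to 0.083 for the respiratory chain, -0.49 to -0.34 for sulfate assimilation, 0.12 to 0.14 for histones, 0.47 to 0.53 for late mitosis, -0.071 to 0.067 for the secretory pathway, 0.032 to 0.26 for pheromone response and 0.64 to 1.40 for meiosis. It also moved by over 1.5 times the medians of nitrogen targets (1.46 to 2.69) and general stress (1.85 to 3.13). The same held for mitochondrial ribosomal proteins (-1.92 to -1.07), autophagy (1.15 to 1.87), vacuolar hydrolases (1.19 to 1.85) and stationary phase (0.63 to 1.16). It held for iron (-0.98 to -0.35), hexose transporters (0.36 to 0.74), hypoxic genes (0.26 to 0.57) and sterol synthesis (0.42 to 0.70). Ribonucleotide reductase and DNA damage (0.35 to 0.69), a-cell genes (0.32 to 0.59) and nuclear transport (-0.29 to -0.17) moved as much. So did chaperones (-0.13 to 0.23, both signs), glycolysis (-0.033 to 0.089, both signs) and G1 and DNA replication (0.017 to 0.081).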

Other observations

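Several pairs of paralogs lay on opposite sides of the range at 9.6 h, picked after their values were seen. RAS2, a GTPase of the protein kinase A pathway, lay above with 13.73 log2 units at 9.6 h, against 12.90, 12.98 and 12.15 at 4.1, 6.85 and 14.5 h, and its paralog RAS1 lay below with 7.59, against 11.69, 11.34 and 11.40. DOT6 lay only just above with 11.81 at 9.6 h, against 10.60, 10.68 and 10.83 and 11.64 to 11.76 at the other aerobic times. TOD6, its partner as a repressor of ribosome biogenesis genes, lay below with 3.36, against 10.32, 10.47 and 9.87. BAT1, the mitochondrial branched-chain aminotransferase, lay below with 13.05, against 14.63, 14.52 and 13.91, whereas BAT2 lay above. URA5 lay below with 13.74, against 14.82, 14.76 and 14.39, and its paralog URA10 lay above.

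Of the 546 genes more than 1 log2 unit below the range, 184 were in no list, and of the 110 more than 1 unit above, 82 were in none. Among those 184 were SYO1, a transporter of ribosomal proteins, with 2.38 at 9.6 h, against 10.79, 11.14 and 9.97, and RRB1, a chaperone of Rpl3, with 5.74, against 13.43, 13.43 and 12.71. The uracil and uridine permeases FUR4 and FUI1 had 8.87 and 9.27 at 9.6 h, with neighbour values from 11.85 to 12.25. IFH1, a coactivator of ribosomal protein genes, had 8.53, against 10.24, 10.10 and 10.20. All of these were picked after their values were seen.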
